A study of Homo sapiens with 6 samples.

Results

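The gene set described here comprised 33 genes whose known work lies in germ cells or in tissues other than myeloid blood, out of the 912 genes targeted by a pooled short hairpin RNA (shRNA) screen. The genes were chosen by symbol, for what they are known to do, when earlier results of these data were already at hand. They serve as a reference in which little effect of knockdown is to be expected in a leukaemic cell line. Each was targeted by 8 shRNAs, called hairpins here, so that 264 of the 7293 hairpins seen in at least 1 library belonged to the set. The screen asked which chromatin regulators change how leukaemic cells respond to azacitidine (AZA), a nucleoside drug that is built into RNA and DNA and inhibits DNA methylation. SKK-1, an established human cell line grown from an acute myeloid leukaemia that followed a myelodysplastic syndrome, received the lentiviral hairpin library at low titre in 3 separate transductions and was selected with puromycin. Each transduced culture was then divided into an untreated arm and an arm that was dosed with 0.25 µM AZA once per 2 days, until cells were collected for genomic DNA at day 14. This gave 3 untreated and 3 AZA libraries of hairpin counts, in which libraries of the same number came from the same transduction. All 6 arms carried the library and the selection, and no arm without hairpins was analysed here.

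Germ cells keep their genome and transposons under control with proteins that are little used elsewhere. Small RNAs bound to PIWI proteins (piRNAs) are made and used in cytoplasmic germ granules, in which Tudor domain proteins bind methylated arginines of their partners. Many such germ-line genes are known to be held silent in somatic cells by DNA methylation of their promoters, and drugs that remove this methylation can switch some of them on. The screen measured DNA and no RNA, so neither silence of the 33 genes in SKK-1 nor induction by AZA could be checked, and the efficiency of each hairpin was not measured here. The name of the set therefore rests on known biology alone.

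A hairpin acts through its guide strand, 22 bases long in this library, whose bases 2 to 8 (the seed) also pair with unintended transcripts. Guide sequences of 5 of the 33 genes, 40 in all, were read from the supplementary library table, and each had its exact target in GENCODE v44 transcripts of its own gene and of no other gene. Of these targets, 32 lay within coding sequence, 5 within a 3′ untranslated region, 2 across the edge of the coding sequence and 1 across an exon junction. The number in a hairpin name gave the place of its target, since all 292 pairs of library guides numbered 1 to 14 apart were shifted by exactly that number of bases. The guides below are those of the set whose targets overlap and whose sequence was at hand, written 5′ to 3′ with the seed in capitals. They are shown because hairpins that act at nearly the same place, but with different seeds, can be set side by side. Differences between them mix reagent with replicate noise, and their counts also carry starting abundance, which was not analysed here.
ATOH1.556: tGTCGTTGttgaacgacgggat
ATOH1.557: tTGTCGTTgttgaacgacggga
ATOH1.572: tATTTGGAcagcttcttgtcgt
ATOH1.577: tCTCATATttggacagcttctt
DDX4.156: tATCACTActttctcctccttc
DDX4.161: tTGAGTATcactactttctcct
DDX53.1028: tTGAACATtcagcttccacgtg
DDX53.1034: aATACTTTgaacattcagcttc
DDX53.1931: tTCTTGATcgtgtttctctgtg
DDX53.1932: tTTCTTGAtcgtgtttctctgt
ASMT.980: tTTGACGTtagttccaggtcac
ASMT.985: tGTGCTTTgacgttagttccag
ASMT.1002: tTTATTATtatgtcttgtgtgc

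On GRCh38 the 4 targets in ATOH1, a transcription factor of inner-ear hair cells and secretory gut cells, lay on the plus strand in the coding sequence of exon 1, at chr4:93829482-93829503, chr4:93829483-93829504, chr4:93829498-93829519 and chr4:93829503-93829524. The DDX4 targets were in coding exon 12, at chr5:55785467-55785488 and chr5:55785472-55785493, also on the plus strand. The DDX53 targets lay in the coding sequence of exon 1, at chrX:23000988-23001009, chrX:23000994-23001015, chrX:23001891-23001912 and chrX:23001892-23001913. The ASMT targets fell in the 3′ untranslated region in exon 9, at chrX:1643024-1643045, chrX:1643029-1643050 and chrX:1643046-1643067. ATOH1, DDX53 and ASMT were read on the plus strand as well.

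Overlap of targets did not bring equal counts. ATOH1.556 and ATOH1.557, whose targets share all but 1 base at each end, had 105, 606 and 3342 against 715, 968 and 17 counts in untreated libraries 1, 2 and 3. In the AZA libraries they had 1290, 2401 and 2038 against 723, 1615 and 407 counts. In untreated library 3 the first of them was among the well-filled hairpins while the second was nearly lost, and in untreated library 1 the order was the other way round. ATOH1.572 had 210, 551 and 978 untreated and 1389, 2099 and 614 AZA counts, and ATOH1.577, 5 bases further on, had 273, 1713 and 2067 and 1340, 805 and 1707. Their log2 fold changes, AZA over untreated, were 0.91 (SE 1.04) and -0.42 (SE 0.88), on opposite sides of 0 and each within 2 SE of it.

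The DDX4 pair, against the germ-cell RNA helicase also known as vasa, had 202, 2254 and 693 untreated and 4110, 4619 and 3061 AZA counts for DDX4.156. DDX4.161 had 1433, 2387 and 1026 untreated and 3833, 2232 and 2820 AZA counts. Both were higher on average after AZA, by 1.54 (SE 0.78) and 0.39 (SE 0.63) on the log2 scale. Against DDX53, a helicase of the cancer-testis group, DDX53.1028 gave -0.99 (SE 0.45) and DDX53.1034 gave -0.91 (SE 0.61), which is nearly the same value. Untreated counts of DDX53.1034 were 1213, 2933 and 11781, with the third library far above the others, whereas those of DDX53.1028 were 2293, 4887 and 4564. DDX53.1931 and DDX53.1932, 1 base apart, gave 0.23 (SE 0.65) and -0.54 (SE 0.76). For ASMT, the last enzyme of melatonin synthesis, ASMT.980 and ASMT.985 gave 0.27 (SE 0.72) and 0.12 (SE 1.14), although ASMT.985 had 824, 23 and 3615 untreated counts against 852, 1825 and 1188. ASMT.1002 was the fullest of the trio, with 4988, 7575 and 3765 untreated and 6788, 4085 and 6307 AZA counts. None of these hairpins passed the adjusted test described further on.

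Over all 33 genes, 59 pairs of hairpins in 27 genes had targets numbered less than 22 bases apart. The median absolute difference of log2 fold change within these pairs was 0.62, against 0.70 in the 865 pairs of hairpins of 1 gene that were further apart. Among the 15 pairs numbered 1 base apart it was 0.89. The 2 hairpins stood on the same side of 0 in 31 of the 59 overlapping pairs and in 431 of the 865 other pairs, and in 10 of the 15 pairs 1 base apart. Pairs that share a hairpin are not independent, so these are descriptions. The median SE of the log2 fold change of a hairpin of the set was 0.70. Differences between reagents could thus not be told apart from replicate noise here. In the whole pool the medians were 0.63 for 350 pairs 1 base apart and 0.73 for pairs 22 or more bases apart. The share on the same side of 0 was 59.4% and 51.9% in these.

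PRDM9, the methyltransferase that sets sites of meiotic recombination, and its close paralogue PRDM7 could not be fully separated. PRDM7.810 and PRDM9.1790 had identical counts in all 6 libraries, with 3176, 4038 and 5062 untreated and 4560, 7191 and 5285 AZA counts. PRDM7.1839 and PRDM9.3640 were also identical, with 3551, 9291 and 7308 and 6835, 6453 and 3645. In the part of the library table at hand, all 37 pairs of names with identical counts had the same guide, and the guides of these 4 names were not analysed here. The set thus held 262 distinct count profiles under 264 names, and values of PRDM7 and PRDM9 share 2 of their 8 hairpins.

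The 264 hairpins kept their joint place in the pool. Library totals ranged from 12292575 to 22587662 counts, and the set took 4.09, 3.90 and 3.84% of them in untreated libraries 1, 2 and 3 and 4.03, 4.08 and 3.77% in the AZA libraries. Its median hairpin stood at 111, 107 and 118 CPM (counts scaled to 1000000 per library) untreated and 121, 127 and 116 CPM after AZA. The share overlapped between arms, and the median was higher in AZA on average but overlapped too (exact two-sided permutation p = 0.2 over the 6 libraries). With 3 against 3 libraries the smallest p such a test can give is 0.1, and it takes no account of the pairs.

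What differed between the arms was the evenness of the set. The standard deviation (SD) of log2 CPM over the 264 hairpins was 1.72, 1.96 and 2.25 in untreated libraries 1, 2 and 3 and 1.18, 1.37 and 1.17 in AZA libraries 1, 2 and 3. The arms did not overlap, at 1.98 ± 0.264 against 1.24 ± 0.111 (SD, n = 3 each). An exact permutation test over the libraries, two-sided, gave p = 0.1, which is its lower bound. The CPM at the 90th percentile was 11.3, 21.3 and 23.7 times that at the 10th percentile in the untreated and 7.88, 7.98 and 6.05 times in the AZA libraries. The difference lay at the low end, where 11, 21 and 24 hairpins fell under 10 CPM in the untreated libraries and 2, 5 and 3 in the AZA libraries. No hairpin of the set was at 0 in any AZA library, whereas PRDM12.599 and TSSK6.631 were at 0 in untreated library 1 and PAX9.1052 and PRDM13.1637 in untreated library 3. A count of 0 there allows up to 0.244 and 0.153 CPM (3 counts, counting error only). Each of the 4 had counts in the other untreated libraries and in all AZA libraries.

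**Figure D1:**
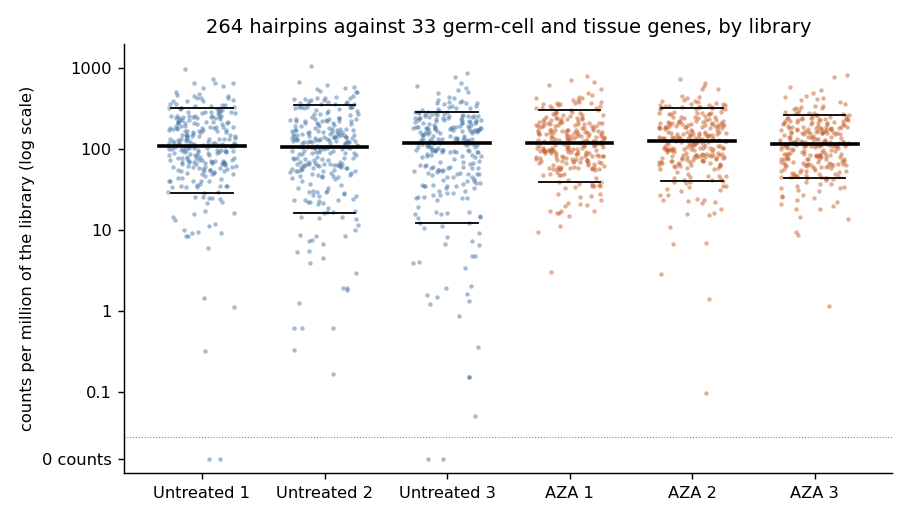
Abundance of each of the 264 hairpins (points) in the 6 libraries, in CPM on a log axis, with hairpins at 0 counts drawn below the dotted line; thick bars mark the median and thin bars the 10th and 90th percentiles. The medians stay between 107 and 127 CPM, while the untreated libraries reach far lower at the bottom.

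The same contrast of evenness was present outside the set. Over all 7293 hairpins the SD of log2 CPM was 2.27 ± 0.180 untreated and 1.47 ± 0.0682 after AZA (SD, n = 3 each). The 223 hairpins against 28 core essential genes, which every dividing cell needs, had SDs of 2.75, 3.13 and 3.22 untreated and 1.96, 2.05 and 1.9 after AZA. In each of the 6 libraries the germ-cell and tissue set was narrower than the essential set, whose median hairpin also stood lower, at 65.4 ± 12.0 CPM untreated and 70.6 ± 0.994 CPM after AZA. A second list of 23 germ-line and tissue genes outside the set stood between them, with SDs of 2.55 ± 0.180 and 1.57 ± 0.135. These contrasts between lists share libraries and were not tested. How many cells each arm held at harvest was not measured here, and the part of cell number, PCR or growth in the evenness was not tested.

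Replicates of 1 hairpin also spread more without AZA. The SD of log2 CPM over the 3 untreated libraries had a median of 0.859 over the set, and over the 3 AZA libraries a median of 0.492. It was larger untreated for 188 of 264 hairpins (71.2%), and in the pool for 72.9%. An SD over 2 on the log2 scale, a factor of more than 4, was reached by 44 hairpins of the set untreated and by 5 after AZA. These were 16.7% and 1.89% of the set, against 18.9% and 3.39% of the pool. Spread and abundance went together, as the 66 hairpins with the lowest mean CPM (up to 81.0) had median SDs of 1.52 untreated and 0.657 AZA, and the 66 with the highest (from 187) had 0.452 and 0.344. In both groups of 66 hairpins between these the untreated median SD was again the larger. The count model put the coefficient of variation between replicates of the set at 0.863 untreated and 0.499 after AZA, near the 0.932 and 0.557 of the whole pool.

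**Figure D2:**
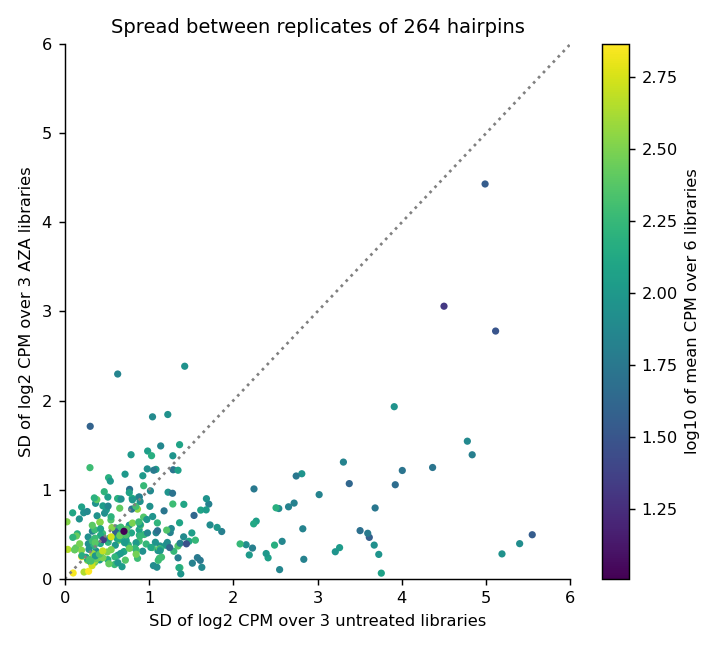
SD of log2 CPM over the 3 untreated libraries (x axis) against that over the 3 AZA libraries (y axis) for 264 hairpins, coloured by mean CPM, with the line of equal spread dotted. Most points (188) lie below the line, and of the 10 with an untreated SD over 4, 7 were under 10 CPM in 1 untreated library and 3 in 2 of them.

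The widest hairpins show what this scatter looked like. PRDM12.599, against a regulator of pain-sensing neurons, had 0, 1535 and 1624 untreated and 299, 373 and 216 AZA counts. TSSK6.45, against a kinase needed for sperm chromatin packing, had 1824, 1204 and 1 untreated and 2035, 2033 and 1484 AZA counts. PRDM14.1574, against a factor of primordial germ cells, had 3192, 843 and 3 and 1786, 1444 and 1517. In each of these 3, the widest untreated, 1 untreated library was at or near 0 while the AZA libraries kept within about 2-fold of each other. The widest after AZA were PRDM13.1637, PAX9.1052 and TSSK6.631, which were wide in both arms. PRDM13.1637, against a factor of spinal and retinal interneurons, had 1318, 82 and 0 untreated and 1678, 2 and 196 AZA counts. PAX9.1052, against a factor of tooth and skeletal development, had 430, 262 and 0 and 1310, 59 and 26, and TSSK6.631 had 0, 1075 and 801 and 274, 29 and 1597. Their fold changes carried SEs of 2.19, 2.15 and 1.9 on the log2 scale, and all 3 turned sign when 1 library was left out, in either arm. At the other end, the most abundant hairpin, PRDM12.2439, kept to 986, 674 and 888 CPM untreated and 628, 649.9 and 579.9 CPM after AZA, and the least abundant, YBX2.517, to 15.7, 6.76 and 6.62 and 11.4, 6.70 and 13.8 CPM.

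Within each divided culture the median of the set lay near that of the pool while single hairpins moved widely. The median log2 difference, AZA minus untreated on library totals, was 0.043, 0.26 and 0.044 in pairs 1, 2 and 3, and in the pool 0.14, 0.19 and 0.16. The means were higher than the medians, at 0.23, 0.45 and 0.50 for the set. The SD of these differences over the set was 1.52, 1.86 and 1.91, so that 98, 116 and 116 of the 264 hairpins differed by more than 2-fold between the arms of a single culture. These were 37.1, 43.9 and 43.9% of the set, against 40.5, 45.4 and 43.7% of the pool. A difference of the same sign in all 3 pairs was seen for 35 hairpins that were lower and 40 that were higher after AZA, together 28.4% against 29.7% of the pool. By direction, 10.7% of the pool was lower and 19.0% higher in all 3 pairs. Pearson's r of log2 CPM over the 264 hairpins was 0.29 to 0.40 between untreated libraries, 0.53 to 0.65 between AZA libraries and 0.42 to 0.52 between the arms of 1 culture, a range that overlapped the 0.37 to 0.51 between arms of different cultures. These correlations are across hairpins, which share the starting library.

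The test of AZA against untreated called no hairpin of the set. All 264 passed the low-count filter, and with edgeR's quasi-likelihood test (Benjamini-Hochberg over 7262 hairpins) 0 of them had an adjusted p under 0.05, where 0.0689% of all tested hairpins did. At an unadjusted p under 0.05, 13 were lower and 4 higher after AZA, against a background of 3.72% lower and 1.9% higher in the pool, which for 264 hairpins is a share of the set close to that of the pool (6.44% against 5.62% in both directions). The split of 13 and 4 was 5 lower and 9 higher with library totals, 5 and 8 with scaling on the set itself, and 9 and 7 with the replicate number as a block. DESeq2's Wald test called 3 lower and 1 higher, where it called 1.06% and 0.823% of 7170 hairpins. In 24 hairpins every AZA library lay below every untreated library after TMM scaling, and in 16 above, against 6.6% and 6.62% of all hairpins. The set had its median log2 fold change at -0.074 and the pool at -0.096. With CPM on library totals instead, the pool median moved up to 0.067 and that of the set to 0.089, and the set stood 0.022 or 0.023 above the pool under these scalings. Relative to the pool it stood at -0.051 with the replicate number as a block, at -0.041 by the mean of log2 CPM, and at -0.040, -0.015, -0.011 and -0.029 without untreated library 1, 2 or 3 or AZA library 2, so its side of the pool was not settled. The middle 95% of the set, between percentiles 2.5 and 97.5, reached from -1.56 to 1.80, with an SD of 0.79 against 0.94 in the pool. The second list of germ-line and tissue genes had an SD of 0.89.

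The hairpins with the smallest p in each direction give the edge of this range. RAG2.2346, against a subunit of the V(D)J recombinase of lymphocytes, had 661, 1069.7 and 504 CPM untreated and 469, 320.1 and 245 CPM after AZA, a log2 change of -1.28 (SE 0.36) with an adjusted p of 0.643. YBX2.421, against a germ-cell RNA-binding protein, had 272, 243 and 369 CPM untreated and 137, 104 and 122 CPM after AZA, a log2 change of -1.45 (SE 0.41) with an adjusted p of 0.643. TSSK6.1405 had 364, 175 and 210.5 CPM untreated and 114, 67.0 and 43.5 CPM after AZA, a log2 change of -1.89 (SE 0.56) with an adjusted p of 0.667. In all 3, which DESeq2 called lower, the AZA libraries were below the untreated ones without overlap. MAEL.893, against the piRNA factor maelstrom, had 173, 214 and 92.2 CPM untreated and 60.3, 42.5 and 46.2 CPM after AZA, a log2 change of -1.85 (SE 0.66) with an adjusted p of 0.751. PADI1.3804, against a skin enzyme that converts arginine to citrulline, had 348, 319 and 289.5 CPM untreated and 222, 140.4 and 156 CPM after AZA, a log2 change of -1.05 (SE 0.38) with an adjusted p of 0.751. In these the AZA libraries were likewise all below the untreated ones.

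In the other direction, PRDM7.1585 had 11.4, 17.5 and 12.2 CPM untreated and 174, 97.4 and 87.3 CPM after AZA, a log2 change of 2.96 (SE 0.91) with an adjusted p of 0.678. PRDM9.3060 had 50.1, 21.0 and 36.1 CPM untreated and 153, 137 and 176 CPM after AZA, a log2 change of 1.96 (SE 0.71) with an adjusted p of 0.754. All 3 AZA libraries exceeded all untreated ones in both, and PRDM7.1585 was the fourth hairpin that DESeq2 called. PAX6.562, against the eye and brain transcription factor, had 41.0, 29.9 and 8.25 CPM untreated and 97.3, 139 and 170.1 CPM after AZA, a log2 change of 2.20 (SE 0.86) with an adjusted p of 0.794. RAG1.4386, against the catalytic subunit of the V(D)J recombinase, had 62.5, 11.6 and 65.5 CPM untreated and 326, 102 and 185 CPM after AZA, a log2 change of 1.98 (SE 0.78) with an adjusted p of 0.805. RAG1.5260 had 34.7, 68.8 and 49.3 CPM untreated and 135, 91.6 and 264 CPM after AZA, a log2 change of 1.51 (SE 0.70) with an adjusted p of 0.898. The 2 RAG1 hairpins and PAX6.562 were also separated between arms. None of the 10 passed edgeR's adjusted test, and they were picked as the extremes of 264.

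**Figure D3:**
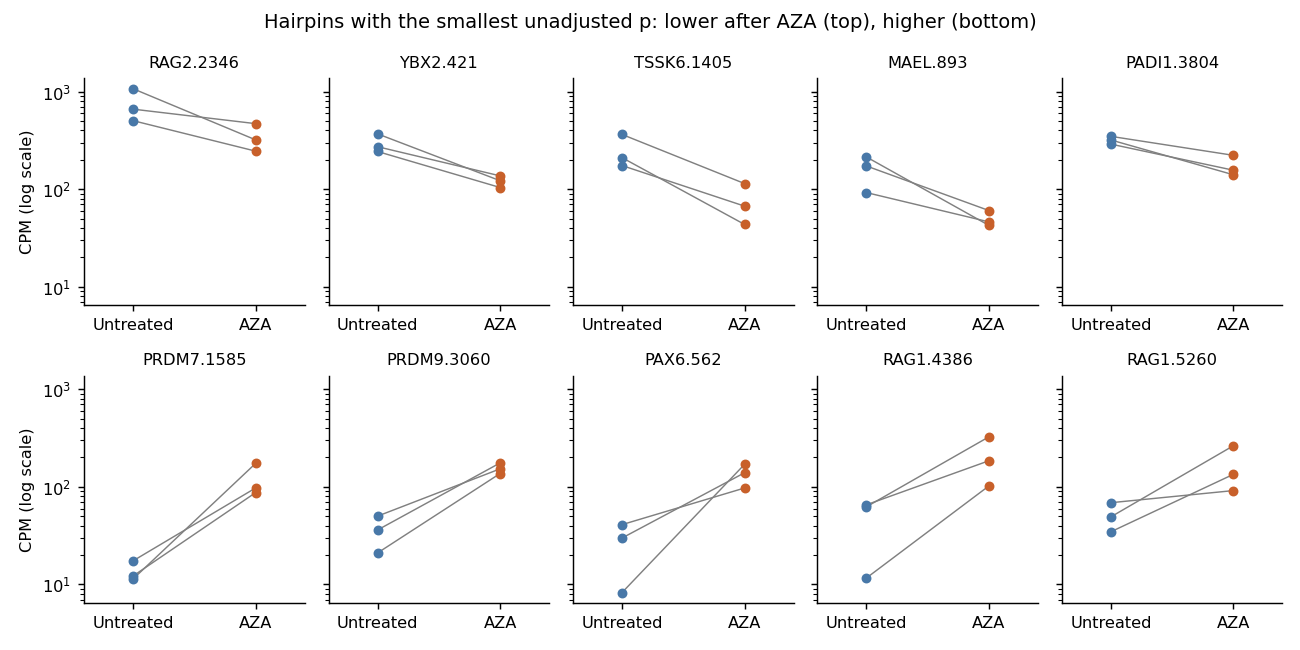
CPM (log axis) of the 5 hairpins per direction with the smallest unadjusted p, in untreated (blue) and AZA (orange) libraries; grey lines join the arms of 1 divided culture. All lines fall in the upper row and rise in the lower row, yet the adjusted p was 0.643 or more for every hairpin shown.

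These extremes overlap in size with hairpins that the test did call. The 5 called hairpins of the pool, against CREBBP, NAA15 and USP51, had log2 fold changes of -2.28, -1.76 and -1.73 (CREBBP), -1.91 (USP51) and 1.77 (NAA15). Of the 264 hairpins of the set, 5 were lower than the 2 weaker CREBBP hairpins, 2 lower than that of USP51 and 7 higher than that of NAA15. Of the 5, the strongest CREBBP hairpin alone lay outside the whole range of the set, which ran from -2.11 to 2.96. The lower end was PRDM12.599 (SE 1.77), with 0 counts in untreated library 1, whose value was -1.23 with the replicate block and -2.69 without that library, beyond the strongest CREBBP hairpin as fitted on all libraries. In all, 37 of the 6998 other hairpins were below that range and 61 above it.

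By gene, a value is the mean over 8 hairpins with the SD over them, which mixes reagent differences with noise. With the replicate number as a block, which follows the divided cultures, 11 of the 33 means given here turned from below to above 0, and 23 were then above 0. PADI6, ATOH1, PADI3, TSSK6 and YBX2 were among the 11, at 0.095, 0.63, 0.44, 0.52 and 0.21 with the block. The others were PRDM12, MAEL, STK31, DDX53, TDRD9 and PADI1, at 0.31, 0.19, 0.10, 0.064, 0.061 and 0.059. The 9 genes of the germ granule and piRNA pathway lay between -0.45 and 0.24, with 0 hairpins called. Of their 72 hairpins 42 were lower after AZA, which is 58.3% against 54.9% of the pool, and 45.8% were lower with the block. The Tudor proteins TDRD1 and TDRD5, scaffolds of the granule, had -0.45 ± 0.45 and -0.31 ± 0.57, and 7 and 6 of their 8 hairpins were lower. With the block they were at -0.21 and -0.060, with 5 hairpins of each lower. TDRD6, TDRD9, a helicase with a Tudor domain, and TDRD12 had -0.10 ± 0.43, -0.10 ± 0.79 and 0.065 ± 0.53. RNF17 and STK31, which also carry Tudor domains, had -0.19 ± 0.67 and -0.016 ± 0.57. MAEL stood at -0.081 ± 0.93, and DDX4, at 0.24 ± 0.80, was the highest of the pathway. Every SD over hairpins was larger than the distance of its gene's mean from 0 except that of TDRD1, for which they were about equal.

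The other gamete genes ranged from -0.42 to 0.34, with 41 of 72 hairpins lower, which is 56.9% against 54.9% of the pool. With the block 44.4% were lower. PRDM14, PADI6, a component of oocyte cytoplasm, and ZAR1, an RNA regulator of the oocyte, had -0.42 ± 0.77, -0.41 ± 0.54 and -0.38 ± 0.52. With the block PRDM14 was at -0.084, with 2 of its 8 hairpins lower. YBX2 stood at -0.29 ± 1.06, DDX53 at -0.29 ± 0.60 and DDX25, a testis helicase under hormonal control, at -0.16 ± 0.67. TSSK6 and PRDM9 were near 0, at -0.061 ± 0.86 and 0.093 ± 1.15. PRDM7, at 0.34 ± 1.11, owed its mean to PRDM7.1585, as its median hairpin was at 0.050. The recombinase subunits, partners in 1 enzyme, lay at the top and near the bottom of the set, with 0.59 ± 1.13 for RAG1 and -0.36 ± 0.49 for RAG2.

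Developmental transcription factors lay between -0.18 and 0.34, with 34 of 64 hairpins lower, which is 53.1% against 54.9% of the pool. With the block 48.4% were lower. SOX10, of neural crest and glia, had -0.18 ± 0.43, PRDM12 -0.16 ± 0.93 and ATOH1 -0.12 ± 0.63. PRDM13 and RFX4, a regulator of brain development, had 0.033 ± 0.64 and 0.15 ± 0.79. HOXC11, of posterior patterning, PAX9 and PAX6 had 0.24 ± 1.09, 0.29 ± 1.15 and 0.34 ± 1.15 over their hairpins. PAX9 owed its mean to a hairpin at 2.95, as its median hairpin was at -0.059 and 5 of its 8 were lower. Among enzymes and carriers of differentiated tissues, PNMT, which makes adrenaline, had -0.25 ± 0.69, the citrullinating enzymes of skin and hair PADI3 and PADI1 had -0.16 ± 0.66 and -0.046 ± 1.03, and ASMT had 0.034 ± 0.52. FABP1, the fatty acid carrier of liver, was the highest of this group, at 0.44 ± 0.70.

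**Figure D4:**
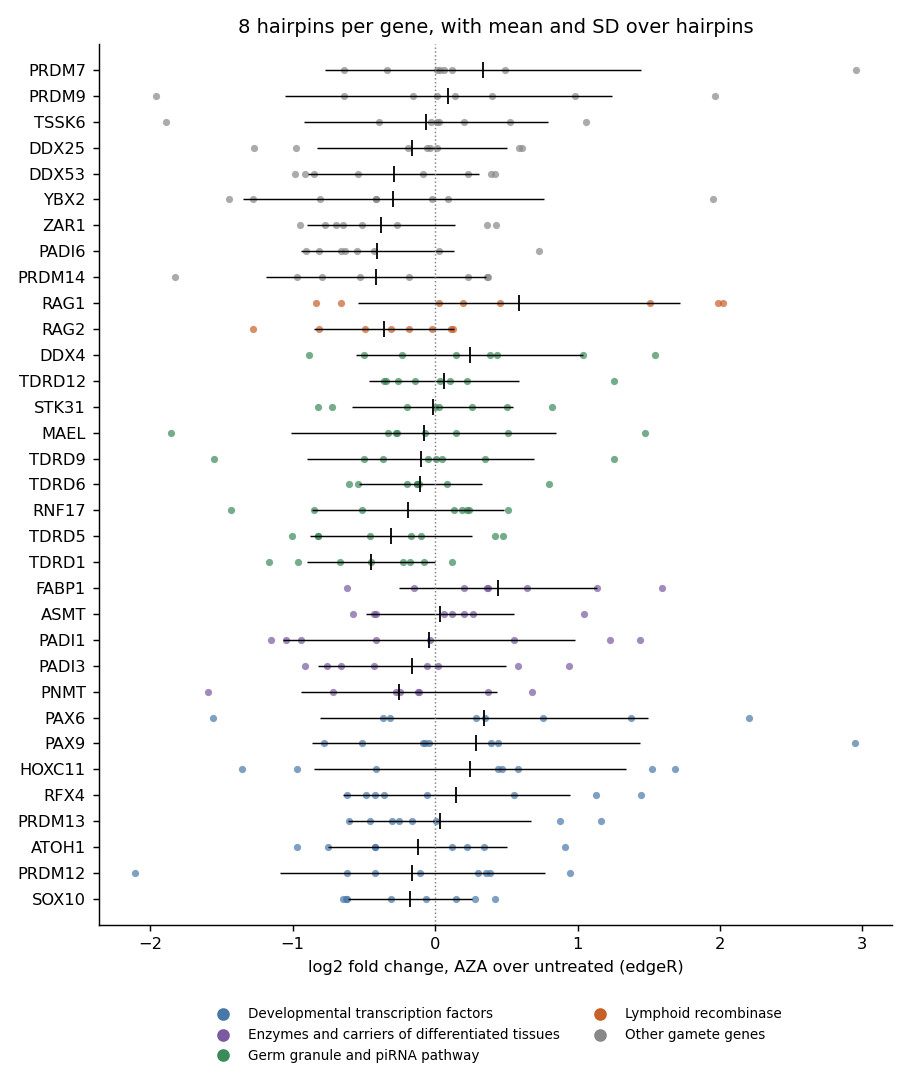
Log2 fold change (AZA over untreated, edgeR) of the 8 hairpins of each gene as points, with the mean (tick) and SD over hairpins (line), coloured by role. Gene means run from -0.45 (TDRD1) to 0.59 (RAG1), and points of every gene fall on both sides of 0.

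Summing the 8 hairpins of each gene before the test gave tighter values and again no call. In edgeR's quasi-likelihood test on summed counts 0 of 33 genes had an adjusted p under 0.05, where 1.21% of the 912 genes did. At an unadjusted p under 0.05 stood 1 gene of the set, RAG2, against 11.6% of all genes. RAG2 had 2811, 3352 and 2650.3 CPM over its hairpins untreated and 2452, 2402 and 2509.9 CPM after AZA, which was a log2 change -0.28, SE 0.12, with an adjusted p of 0.370. Much of this fall lay in RAG2.2346, which alone went from 661, 1069.7 and 504 CPM untreated to 469, 320.1 and 245 CPM after AZA. YBX2 followed with 1404, 623 and 1089.6 CPM untreated and 937, 702 and 703 CPM after AZA (log2 change -0.43, SE 0.27, adjusted p = 0.541 by edgeR). TDRD1 had 1562, 1144 and 1374 and 1138, 1265 and 985 CPM (log2 change -0.29, SE 0.19, adjusted p = 0.550 by edgeR). The arms did not overlap for RAG2 and overlapped for YBX2 and TDRD1. For YBX2 the difference of log2 CPM averaged over hairpins pointed the other way, at 0.19 with limma. Single libraries moved some of these values: YBX2 was at -0.16 without untreated library 1 and -0.69 without untreated library 2, RAG2 at -0.17 without untreated library 2, and TDRD1 at -0.19 without untreated library 1.

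On the higher side, FABP1 went from 739, 753 and 681 CPM untreated to 1043, 1034 and 939 CPM after AZA (log2 change 0.45, SE 0.22, adjusted p = 0.407 by edgeR). RAG1 went from 952, 970.3 and 730.3 to 1345, 967 and 1217 CPM (log2 change 0.39, SE 0.22, adjusted p = 0.504 by edgeR), and DDX4 from 938, 1017 and 767 to 1186, 1151 and 1221 CPM (log2 change 0.36, SE 0.21, adjusted p = 0.505 by edgeR). The arms were separate for FABP1 and DDX4 and overlapped for RAG1. RAG1 and RAG2 stood on opposite sides of 0 on summed counts too, and the difference between them was not tested. These sums include RAG1.4386, RAG1.5260 and RAG2.2346, named above as extremes, so they are not a separate view. The median hairpin was at 0.33 for RAG1 and at -0.25 for RAG2. The 33 genes spanned -0.43 to 0.45 with an SD of 0.22, and the pool had an SD of 0.33. The second list of 23 germ-line and tissue genes was wider, spanning -0.66 to 0.90 with an SD of 0.36. In that list 6 of the 23 genes had an unadjusted p under 0.05 in edgeR's test, with a lowest adjusted p of 0.060. This was a larger share than the 11.6% of all genes, whereas in the set it was 1 of 33. Of the 879 other genes, 53 lay below the span of the 33 genes and 72 above it. CREBBP, the acetyltransferase gene that the study followed up, was far below it at -1.41 (SE 0.057), and NAA15 above it at 1.36 (SE 0.13). By the mean over hairpins, 84 other genes were below and 63 above the span of the set, among them 8 of 28 core essential and 4 of 23 further germ-line or tissue genes. In all, 16.7% of the other genes lay outside that span.

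A count of hairpins on 1 side of 0 did not set the genes apart from the pool. With a requirement of at least 5 of 8 hairpins in 1 direction, 18 of the 33 genes counted as lower after AZA and 10 as higher, against 48.4% and 27.3% of all genes. When the fit took the replicate number as a block, which follows the divided cultures, the split turned to 10 lower and 16 higher. The side of 0 also depended on the measure for single hairpins. For 29 of the 264 the count model gave a lower and the mean of log2 CPM a higher value after AZA, and for 5 the reverse. In the pool this held for 809 and 103 of 7262 hairpins. Together these were 12.9% of the set and 12.6% of the pool. PRDM14.1574 is an example, with a model coefficient of -0.53 and a difference of mean log2 CPM of 2.24, from the counts given earlier, in which 1 untreated library held 3 of the hairpin.

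The measures parted most among rare hairpins. In the 66 hairpins of the set with the lowest mean CPM the median log2 fold change was 0.020 by the count model and 0.77 by the mean of log2 CPM. In the 66 with the highest mean CPM the values were -0.18 and -0.14, and 72.7% of its hairpins were lower after AZA. The pool behaved alike, with 0.22 and 0.84 in its 1816 rarest and -0.26 and -0.22 in its 1816 most abundant hairpins. With library totals in place of TMM the count model gave 0.19 in the 66 rarest and -0.0024 in the 66 most abundant hairpins of the set, 51.5% of which were then lower, and 0.38 and -0.0996 in the pool.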

How the data were processed

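Genomic DNA of SKK-1 cells from 3 untreated and 3 AZA arms was amplified over the guide strands of the hairpins and sequenced. The authors deposited 1 table of raw counts per library, and a hairpin not listed in a table was taken as 0. CASAVA 1.9 and GRCh37 stand in the submitters' processing notes. The step from reads to hairpin counts was not given in the sources used here. PCR reads without molecular identifiers are not independent molecules, so floors cover counting error only.

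Hairpins were tested over the whole pool with edgeR 4.0.16 (limma 3.58.1, R 4.3.3), TMM scaling, CPM above 0.5 in at least 3 libraries, the quasi-likelihood test and Benjamini-Hochberg adjustment at 0.05, with treatment as the only term. Genes were tested in the same way on counts summed over hairpins. Fold changes are log2 values of AZA over untreated, and log2 CPM used a prior count of 2. The SE of a fold change was derived from the test, as its absolute value over the square root of the quasi-likelihood F statistic. DESeq2 1.42.0 was an alternative for hairpins only. The code was tested on simulated counts. Named with values by library were the 5 hairpins and 3 genes per direction with the smallest p, the 3 hairpins per arm with the largest SD, the most and least abundant hairpin, and hairpins with overlapping targets whose guide was at hand. Members and lists were chosen with earlier results of these data known.

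Replicate numbers pair the arms, since each transduced culture was divided. Over the pool, log2 CPM values minus their group mean correlated at 0.11 to 0.14 between libraries of 1 number and at -0.098 to -0.025 between others. Over the 264 hairpins alone these ranges overlapped, at -0.13 to 0.095 and -0.23 to 0.15. Taking off the group mean forces such values to balance, so the negative range in the pool is no separate sign of pairing. The pairing was used in an alternative with the replicate number as a block.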

Additional observations from a re-analysis of the deposited data

How the results depend on the processing

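Under all alternatives but DESeq2's Wald test, which called 4, no hairpin of the set passed the adjusted threshold. No gene of the set passed under any alternative run on genes, each library left out included (0 to 0 calls). DESeq2's Wald test was not run on genes. The replicate block, which uses the pairing, gave 0 hairpins and 0 genes as well. The number of hairpins at an unadjusted p under 0.05 was 17, and 27 without untreated library 1, 7 without AZA library 1, 10 without AZA library 2 and 5 without AZA library 3. The median log2 fold change of the set, -0.074, was 0.089 with library totals, 0.081 with scaling on the set itself, 0.058 and 0.057 as a difference of mean log2 CPM with prior counts of 2 and 0.5, and 0.029 with the replicate block. It was -0.13 to -0.049 with each library left out. The direction of so small a value thus depends on the scaling, the model and the measure. The excess of untreated over AZA median replicate SD, 0.37, was 0.23 to 0.31 with the libraries of 1 number left out, chosen after seeing the data. Counting names with identical counts once, also chosen afterwards, gave 0 calls and a median of -0.074. Thinning all libraries to 12292575 counts left an untreated minus AZA difference in SD of log2 CPM of 0.73, against 0.74.

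Among single hairpins TSSK6.45 ran from -0.38 to 1.26 with 1 library left out and turned without untreated library 3. PRDM14.1574 turned to 1.14 with the block and ran from -1.11 to 1.54, turning without untreated library 1. PRDM13.1637 ran from -3.21 to 3.66 and turned without untreated library 1 and AZA libraries 2 and 3. PAX9.1052 ran from -3.16 to 1.58 and turned without untreated library 3 and AZA library 1. TSSK6.631 turned to 0.65 with the block and ran from -2.24 to 0.34, turning without untreated library 2 and AZA library 2. YBX2.517 turned to 0.13 with library totals, 0.15 with scaling on the set, 0.024 with the block, and ran from -0.26 to 0.48, turning without untreated library 1 and AZA library 2. The gene YBX2 turned to 0.19 with limma on mean log2 CPM, with and without the block. The causes were not tested. With 3 libraries per arm and a coefficient of variation near 0.77 in the pool, small changes of single hairpins could not be detected. A large fitted value could stay uncalled too. PRDM7.1585, picked as the highest hairpin of the set, was at 2.96 without overlap of the arms and had an adjusted p of 0.678 by edgeR. Whether its change was real was not tested.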
